A study of Mus musculus with 7 samples.

Results

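Interferon-stimulated genes are the genes that cells switch on when they sense interferon. The 44 genes described here were chosen by name as well-known members of this class and were found by symbol among the 23361 genes of the expression table. They were chosen with earlier results of these data known. Macrophages carrying the surface profile Lin-F4/80+CD14+CD11b+CD16/32+ were sorted from the tissue bridge that grew inside a conduit joining the cut ends of the sciatic nerve. All mice were wild-type BALB/cJ, all had the left nerve transected and repaired at once, and no agent was given other than anesthetic and analgesic. RNASeq libraries were re-analysed from day 5 (n = 3), day 14 (n = 2) and day 28 (n = 2) after repair, and the comparisons ask how macrophage gene expression changed over this time. There was no uninjured nerve among the libraries, so day 5 is the earliest point and not a resting level. Age and the number of mice behind a library are not given in the sources used here, so p-values measure the spread between libraries, which may in part be technical.

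Type I interferons act through the receptor subunits Ifnar1 and Ifnar2, the kinases Jak1 and Tyk2 and a complex that includes Stat2 and Irf9 and binds the interferon-stimulated response element in promoters. Interferon gamma acts through Ifngr1 and Ifngr2 and leads to binding of the gamma-activated site. The proteins made from the induced genes sense foreign nucleic acid, degrade or trap viral RNA, tag proteins with Isg15 or attack the vacuoles of intracellular microbes. Macrophages hold many of them at a basal level and raise them on activation, also in sterile injury.

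Promoter sequence was examined because the members share a mode of induction, and it is a property that did not depend on the RNASeq values. RefSeq promoter windows on GRCm38.p6, from 250 bases before to 50 bases after a gene start, matched 32 of the 44 genes by symbol, in 38 windows. The response element was searched on both strands as GAAA repeated after a gap of 2 bases (GAAANNGAAA), and the gamma-activated site as TTCNNNGAA. The response element was found in 20 of the 32 genes (62.5%), against 1079 of all 27025 genes with a window (3.99%). The gamma-activated site was found in 9 of the 32 (28.1%), against 9.55% of all genes. Windows with both were found for 6 members (18.8%) and for 0.54% of all genes. Neighbouring response elements can share a GAAA, and matches of the 2 motifs may overlap, as they did in Bst2. In all, 9 members had at least 2 response elements in a window. A match describes letters in the window and not a bound site.

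The 100 bases before the gene start are shown, 5′ to 3′ on the gene's strand with response elements in capitals, for 8 members whose levels are given in full further on and whose match lies in this stretch, and for the neighbours Oasl1 and Oasl2, which differed in their time course and had no match in their windows.
Isg15, chr4:156200819-156200918, minus strand: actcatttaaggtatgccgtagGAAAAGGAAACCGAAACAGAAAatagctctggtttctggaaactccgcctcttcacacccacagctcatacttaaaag
Oas1a, chr5:120907526-120907625, minus strand: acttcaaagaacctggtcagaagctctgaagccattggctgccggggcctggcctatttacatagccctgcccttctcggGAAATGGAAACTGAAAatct
Oas1g, chr5:120887614-120887713, minus strand: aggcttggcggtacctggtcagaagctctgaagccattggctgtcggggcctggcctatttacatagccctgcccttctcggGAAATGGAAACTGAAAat
Oas3, chr5:120777660-120777759, minus strand: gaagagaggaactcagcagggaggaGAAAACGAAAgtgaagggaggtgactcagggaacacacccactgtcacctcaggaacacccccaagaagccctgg
Trim30a, chr7:104465194-104465293, minus strand: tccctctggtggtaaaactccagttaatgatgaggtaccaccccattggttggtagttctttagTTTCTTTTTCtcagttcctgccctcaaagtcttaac
Irgm1, chr11:48871421-48871520, minus strand: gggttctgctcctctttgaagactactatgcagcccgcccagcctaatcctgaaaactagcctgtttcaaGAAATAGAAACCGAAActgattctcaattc
Igtp, chr11:58199456-58199555, plus strand: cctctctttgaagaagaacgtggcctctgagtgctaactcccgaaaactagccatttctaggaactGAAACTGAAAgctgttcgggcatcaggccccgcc
Irgm2, chr11:58214877-58214976, plus strand: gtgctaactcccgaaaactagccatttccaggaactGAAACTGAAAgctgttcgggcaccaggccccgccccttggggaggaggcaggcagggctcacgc
Oasl1, chr5:114923140-114923239, plus strand: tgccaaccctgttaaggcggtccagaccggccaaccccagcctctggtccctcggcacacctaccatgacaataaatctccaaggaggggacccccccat
Oasl2, chr5:114896834-114896933, plus strand: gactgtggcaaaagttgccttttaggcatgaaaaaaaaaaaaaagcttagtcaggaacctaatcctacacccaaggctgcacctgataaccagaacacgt
In Isg15, 3 overlapping matches began 78, 72 and 66 bases before the start. In Oas1a and Oas1g, 2 overlapping matches lay within the last 20 and 18 bases. Trim30a carried its match on the opposite strand. Igtp and Irgm2 had the same matched letters 34 and 64 bases before their starts, and 48 of 50 bases around the match were identical. The response element was found in 16 of the 26 members with a window that fell by day 28 (61.5%) and in 4 of the 6 that did not pass the test (66.7%).

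Many members lie side by side, mostly with close relatives. On GRCm38 with GENCODE genes, Oas2, Oas3, Oas1g and Oas1a are neighbours on chromosome 5 between bases 120730333 and 120907521, and Oasl2 and Oasl1 on the same chromosome between 114896936 and 114937915. Gbp5, Gbp7, Gbp3 and Gbp2 lie on chromosome 3 between 142493978 and 142638008, Ifit2, Ifit3 and Ifit1 on chromosome 19 between 34550694 and 34650009, and Ifi204, Ifi203 and Ifi205 on chromosome 1 between 173747293 and 174031810. The annotated span of Irgm2 overlaps that of Igtp by 7974 bases on chromosome 11, and Parp9 and Dtx3l overlap head to head by 682 bases on chromosome 16. The RefSeq promoter window of Irgm2 (58214727 to 58215026) lies past the GENCODE end of Igtp (58207591), so the overlap of these genes depends on the annotation. How reads shared by relatives or overlapping genes were assigned is not given in the sources used here, so the split of the level within these families is uncertain.

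The libraries held 18027190 to 35247116 fragments assigned to genes. The members were well covered, with 65 to 19819 fragments per gene and library and FPKM values (fragments scaled by transcript length and library size) from 1.55 for Iigp1 to 534 for Ly6e. All 44 passed the filter on low counts. Of 9 macrophage markers, 8 were in the table, and their summed level was 5741 to 6205 FPKM at day 5, 4113 to 4807 at day 14 and 3901 to 4341 at day 28. The day 14 libraries stood apart from each other: the 5 fibroblast markers summed to 221 FPKM in replicate 1 and 79.8 in replicate 2, and the 3 Ly6C monocyte markers to 392 and 167. Calls at day 14 are therefore also given without each of these libraries.

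Interferon-stimulated genes were high at day 5, split between the day 14 libraries and low at day 28. Expressed as a percentage of each gene's day 5 mean FPKM, the median over the 44 members was 101, 112 and 86.1 for the day 5 libraries, 111 for day 14 replicate 1, 56.2 for day 14 replicate 2, and 41.5 and 34.9 for the day 28 libraries. The same median over all genes tested stayed between 99% and 101% in every library. Added over the members, the level was 2456, 2608 and 2013 FPKM at day 5, 2736 and 1281 FPKM at day 14, and 878 and 789 FPKM at day 28. Both day 28 libraries were therefore below each day 5 library for the class as a whole, and the day 14 libraries fell on either side of the lowest day 5 library. Sorted macrophages were measured in bulk, so fewer cells expressing a gene and less RNA per cell cannot be told apart.

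**Figure D1:**
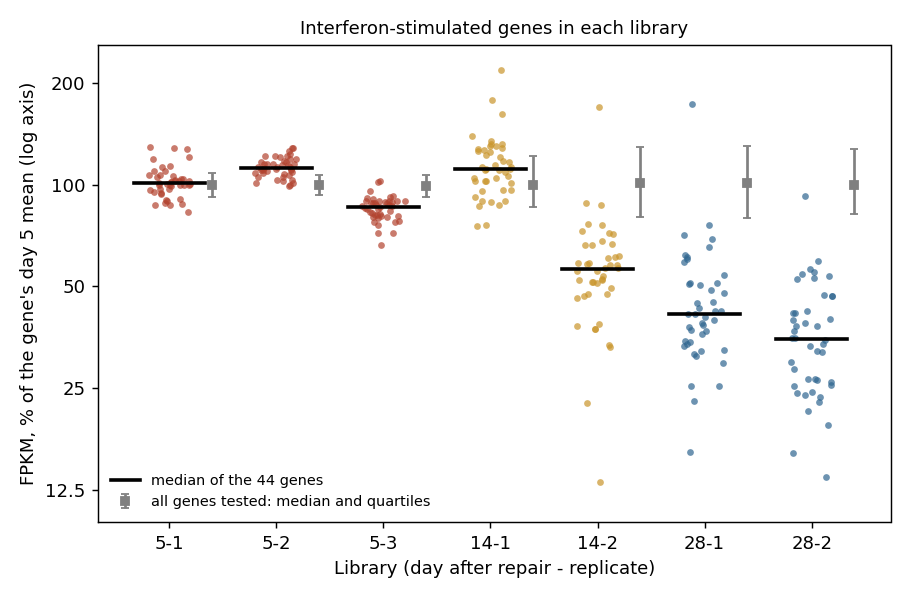
FPKM of each of the 44 interferon-stimulated genes as a percentage of the gene's day 5 mean (log axis) in each library, named by day and replicate. Points are genes, black lines their median, and grey squares with bars the median and quartiles of all genes tested. The members' median falls to 56.2% in day 14 replicate 2 and to 41.5% and 34.9% at day 28, while that of all genes stays near 100%.

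Between day 5 and day 28, 35 of the 44 members fell and none rose. The tests were run with edgeR's quasi-likelihood method over 12858 genes and called at an adjusted p under 0.05. The share of members that fell was 79.5%, against 7.51% of all genes tested, and 7.74% of all genes rose. As the members were chosen with earlier results of these data known, this contrast is not free of selection. The median log2 fold change was -1.36 over the members and 0.03 over all genes tested. Both day 28 libraries were below all 3 day 5 libraries for 42 members, an order found in 25.6% of all genes, and the exceptions were Oasl1 and Iigp1. With the added requirement of a 2-fold lower mean FPKM and a mean of at least 5 at day 5 or day 28, 32 members were left, against 2.01% of all genes. The count of members that fell was 13 without day 28 replicate 1 (1.32% of all genes in that fit), 9 without day 28 replicate 2 (3.93%) and 23 without day 5 replicate 2 (3.34%). It was 42 without day 14 replicate 1 (10.5% of all genes) and 42 without day 14 replicate 2 (10.6%). Where a day was left with 1 library, that library was assumed to vary like the others. In 9 members the fall was called under all 17 settings of the test: Dhx58, Igtp, Irgm2, Ly6e, Oas1a, Oas1g, Oas3, Trim30a and Usp18. Of these settings, 1 was unplanned and was chosen with the values known. It paired libraries by replicate number with those of day 28 exchanged. How many of all genes were called under every setting is not given, so this count describes the members only.

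**Figure D2:**
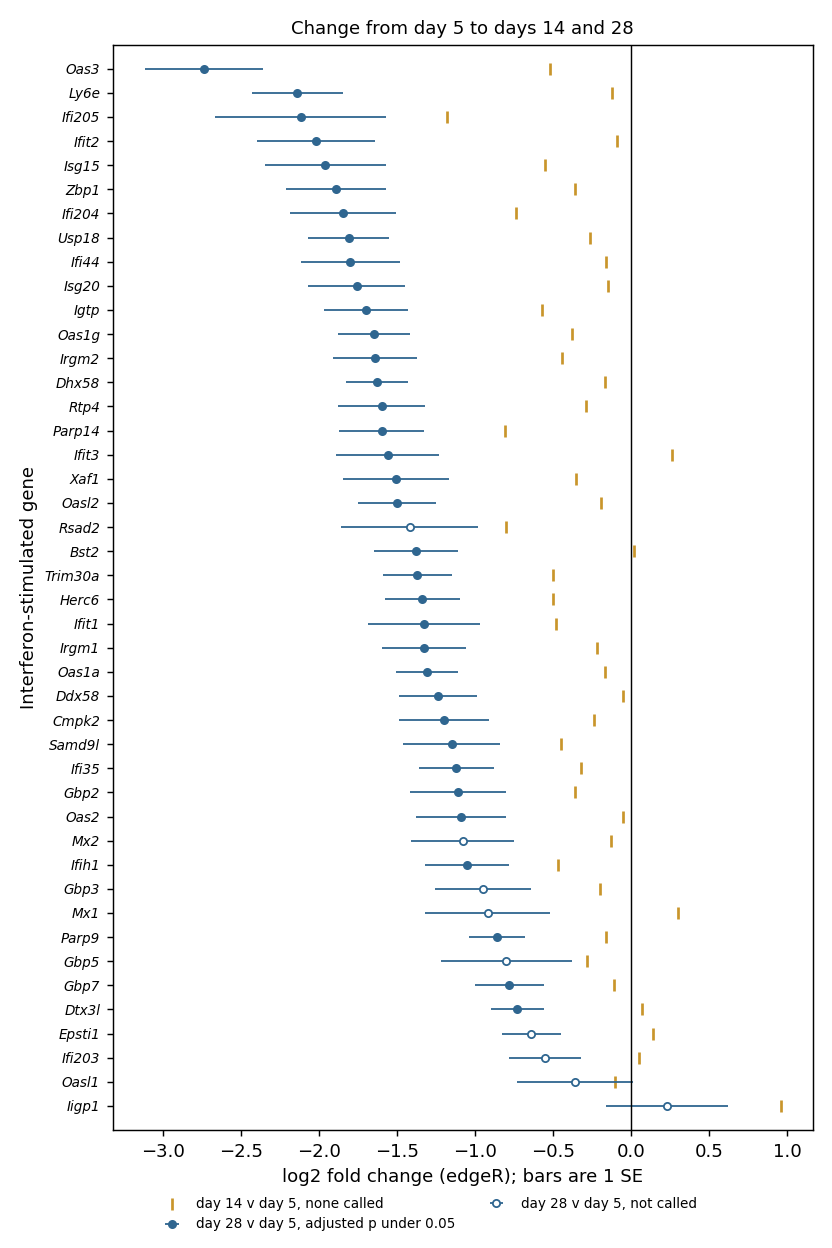
Log2 fold change of each interferon-stimulated gene from edgeR, with bars of 1 standard error, for day 28 versus day 5 (blue, filled where the adjusted p is under 0.05) and, as amber ticks, for day 14 versus day 5. The day 28 values run from -2.74 for Oas3 to 0.23 for Iigp1 and 35 are filled, while the day 14 values scatter around a median of -0.23.

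The genes that bind RNA or make 2-5A, the short oligoadenylate that activates RNase L, fell in 8 of 9 cases, with a median log2 fold change of -1.50. Oas3, the family member with the longest protein, changed more than any other member. Its level was 54.9, 53.4 and 36.6 FPKM at day 5, 48.9 and 18.4 FPKM at day 14, and 7.78 and 6.57 FPKM at day 28. The day 28 mean of 7.17 ± 0.856 FPKM (SD, n = 2) was 6.74-fold below the day 5 mean of 48.3 ± 10.2 (SD, n = 3). The fitted change was -2.74 ± 0.38 on the log2 scale (± SE here and at each fitted change, adjusted p = 0.00302). Oas1g and Oas1a, near-identical neighbours whose reads may be shared, fell less. Oas1g was at 21.7, 20.5 and 17.1 FPKM at day 5, 19.1 and 11.2 at day 14, and 6.78 and 5.62 at day 28 (log2 fold change from day 5 to 28 of -1.65 ± 0.23, adjusted p = 0.003). Oas1a was at 63.3, 65.3 and 53.4 FPKM at day 5, 67 and 40.3 at day 14, and 25.2 and 23.2 at day 28 (-1.31 ± 0.20, adjusted p = 0.00446). In both genes the day 28 libraries were close to each other and under every day 5 library. Oas2 also fell, as did Ifit1, Ifit2 and Ifit3, which bind foreign RNA and block its translation, with log2 fold changes from -2.02 for Ifit2 to -1.09 for Oas2.

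The OAS-like neighbours Oasl1 and Oasl2 parted over time. Oasl2, which keeps synthetase activity in the mouse, was at 55.2, 68.4 and 52.6 FPKM at day 5, 67 and 35.6 at day 14, and 22.3 and 18.8 at day 28. It fell by day 28, with a log2 fold change of -1.50 ± 0.25 (adjusted p = 0.00591). Oasl1, known to restrain translation of the Irf7 message, was at 109, 122 and 98.7 FPKM at day 5, 153 and 50.9 at day 14, and 68.3 and 102 at day 28. Its lowest library was day 14 replicate 2, and the day 28 libraries overlapped those of day 5 (log2 fold change -0.36 ± 0.37, adjusted p = 0.547). The ratio of Oasl1 to Oasl2, each per transcript length, was 1.98, 1.78 and 1.88 at day 5, 2.29 and 1.43 at day 14, and 3.06 and 5.41 at day 28. This ratio was chosen after the values were seen and is given without a test. Oasl1 had the highest mean FPKM of the group and was called under none of the 17 settings.

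**Figure D3:**
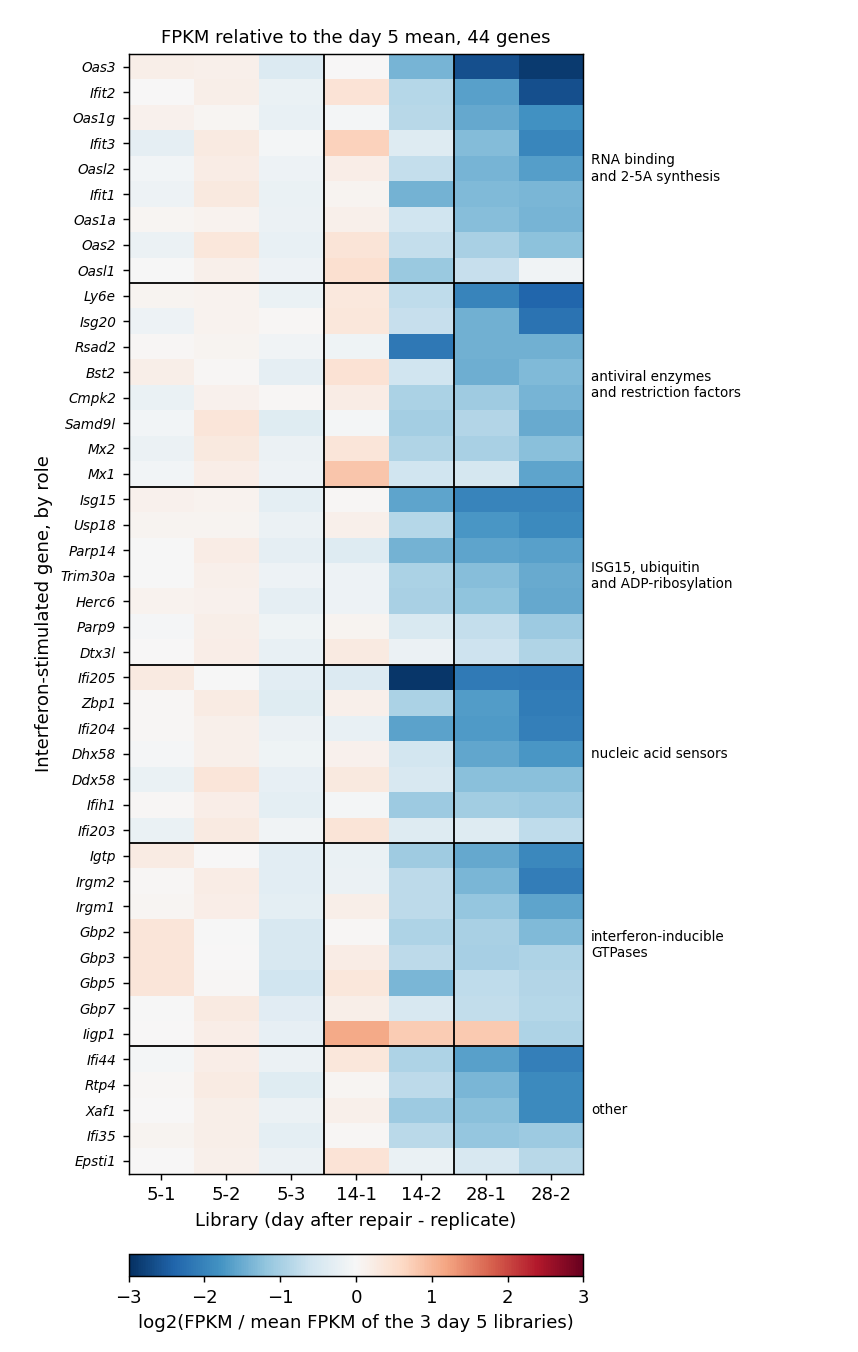
Heat map of log2 FPKM relative to the mean of the 3 day 5 libraries for the 44 interferon-stimulated genes (rows, grouped by role and ordered by their day 28 change) in the 7 libraries (columns, day and replicate). Blue is below and red above the day 5 mean. The day 28 columns are blue for nearly all genes, day 14 replicate 2 is blue for all but Iigp1 and replicate 1 is near the day 5 level, and Oasl1 and Iigp1 break the pattern at day 28.

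Among the antiviral enzymes and restriction factors, 5 of 8 fell, with a median log2 fold change of -1.29. Ly6e, a lipid-anchored surface protein on chromosome 15 (74955051 to 74959905), had the highest FPKM of all members. It was at 455, 456 and 371 FPKM at day 5, 534 and 250 FPKM at day 14, and 108 and 82.7 FPKM at day 28. The day 14 libraries lay on both sides of the day 5 range, and the fall to day 28 was 4.48-fold (log2 fold change -2.14 ± 0.29, adjusted p = 0.00275). The others that fell were Bst2, or tetherin, which holds budding virus at the membrane, the exonuclease Isg20, the mitochondrial nucleotide kinase Cmpk2 and Samd9l. Rsad2, or viperin, which makes a chain-terminating nucleotide, lies 12.8 kb from Cmpk2 in the opposite orientation. It was at 52.6, 54.4 and 47.9 FPKM at day 5, 47.6 and 11.7 at day 14, and 19.1 and 19 at day 28. All day 28 values were under those of day 5, but the day 14 libraries differed 4.08-fold, and in the fit over all 7 libraries the day 28 change was not called (log2 fold change -1.42 ± 0.44, adjusted p = 0.0592). With day 14 left out of the fit the adjusted p was 1.38e-05. Mx1 and Mx2, dynamin-like GTPases, were not called either. Mx1 was at 18.5, 22.4 and 17.5 FPKM at day 5, 34.7 and 12.9 at day 14, and 13.5 and 6.51 at day 28 (-0.92 ± 0.40, adjusted p = 0.149). It was called with day 14 left out of the fit (adjusted p = 0.0218), and its change was -1.56 without day 28 replicate 1 and -0.51 without day 28 replicate 2. Many laboratory strains carry a defective Mx1 allele, and RNA level says nothing on the protein made. Rsad2 and Mx1 were singled out after their values were seen.

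All 7 genes of the Isg15, ubiquitin and ADP-ribosylation group fell, with a median log2 fold change of -1.37. Isg15, the ubiquitin-like tag, was at 148, 146 and 110 FPKM at day 5, 138 and 45.3 at day 14, and 34.1 and 34.3 at day 28. It was 3.94-fold lower at day 28 than at day 5 (log2 fold change -1.96 ± 0.39, adjusted p = 0.0115). Usp18, the protease that removes Isg15 and dampens signalling at Ifnar2, moved in the same way. Usp18 was at 34.7, 34.8 and 29.4 FPKM at day 5, 36.7 and 18.3 at day 14, and 9.79 and 8.73 at day 28 (-1.81 ± 0.26, adjusted p = 0.00336). For Trim30a, a ubiquitin ligase with close relatives, the values were 58.1, 64.6 and 52 FPKM at day 5, 52.2 and 30 at day 14, and 24.1 and 20.4 at day 28 (-1.37 ± 0.22, adjusted p = 0.00511). Parp14, a mono-ADP-ribosyltransferase, was one of 4 members, with Rsad2, Ifi204 and Ifi205, for which both day 14 libraries were under all of day 5. Its level was 68.2, 80 and 56.9 FPKM at day 5, 52.1 and 25.5 at day 14, and 22.8 and 22 at day 28 (-1.60 ± 0.27 for day 28, adjusted p = 0.0067). The partners Parp9 and Dtx3l, which act as a complex and whose genes start next to each other, changed least in the group, with log2 fold changes of -0.86 and -0.73. Herc6, the main Isg15 ligase of the mouse, fell by 1.34 on the log2 scale.

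Of the 7 nucleic acid sensors, 6 fell, with a median log2 fold change of -1.63. Dhx58, or LGP2, a helicase that tunes the RNA sensors Ddx58 (RIG-I) and Ifih1 (MDA5), had the lowest adjusted p of all members. Dhx58 (chromosome 11, 100694884 to 100704271) was at 37.2, 42.4 and 35 FPKM at day 5, 41.7 and 26 at day 14, and 12.9 and 11.4 at day 28. The change to day 28 was 3.13-fold (log2 fold change -1.63 ± 0.20, adjusted p = 0.00183). Zbp1, which senses left-handed nucleic acid and can start necroptosis, had the highest mean level of the sensors. Zbp1 was at 107, 124 and 80.9 FPKM at day 5, 116 and 53.7 at day 14, and 32.8 and 24.4 at day 28 (-1.89 ± 0.32, adjusted p = 0.00677). Ddx58 and Ifih1 fell by 1.24 and 1.05 on the log2 scale. The related DNA-binding genes Ifi204 and Ifi205 fell by 1.85 and 2.12, while their neighbour Ifi203 was at 26.9, 37.3 and 28.5 FPKM at day 5, 40.3 and 23.5 at day 14, and 23.5 and 18.3 at day 28. Ifi203, singled out after its values were seen, was lower in both day 28 libraries but did not pass the test (-0.55 ± 0.23, adjusted p = 0.145). It passed with day 14 left out of the fit (adjusted p = 0.0329).

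The interferon-inducible GTPases, which act on the vacuoles of intracellular microbes and are known as strong targets of interferon gamma, fell in 5 of 8 cases, with a median log2 fold change of -1.03. Irgm1, Igtp and Irgm2 fell. Whether Igtp and Irgm2 overlapped in the annotation used for counting is not known here, and their split is uncertain. Igtp was at 24, 20.4 and 16.3 FPKM at day 5, 17.6 and 9.58 at day 14, and 6.94 and 5.27 at day 28 (-1.70 ± 0.27, adjusted p = 0.00511). Irgm2 was at 8.37, 9.56 and 6.54 FPKM at day 5, 7.25 and 4.71 at day 14, and 3.17 and 1.94 at day 28 (-1.64 ± 0.27, adjusted p = 0.00578). Irgm1, which had the highest mean level of the group, was at 41.6, 46.2 and 32.5 FPKM at day 5, 45.3 and 23.3 at day 14, and 18 and 13.5 at day 28 (-1.33 ± 0.27, adjusted p = 0.0137). Every day 28 value of these 3 genes was under every day 5 value. The guanylate-binding proteins Gbp2 and Gbp7 fell by 1.11 and 0.78 on the log2 scale, and Gbp3 and Gbp5 were not called at -0.95 and -0.80. Iigp1 was the only member with a higher day 28 than day 5 mean. It was at 2.94, 3.35 and 2.49 FPKM at day 5, 6.41 and 4.98 at day 14, and 5.08 and 1.55 at day 28, so the day 28 libraries lay on both sides of day 5. The change was not called (0.23 ± 0.39, adjusted p = 0.734) and its sign turned without day 28 replicate 1 (-0.91). Iigp1, singled out after its values were seen, is the member with the lowest FPKM.

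Of the 5 remaining members, Rtp4, Ifi44, Ifi35 and Xaf1 fell, and Epsti1 did not pass the test (-0.64 ± 0.19, adjusted p = 0.0532). Ifi44, the member with the highest mean level here, was at 78, 92.6 and 71.1 FPKM at day 5, 102 and 42.3 at day 14, and 26 and 19.6 at day 28 (-1.80 ± 0.32, adjusted p = 0.00819). Rtp4, a chaperone of membrane receptors, fell by 1.60 on the log2 scale.

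At day 14 the members could not be separated from day 5 or from day 28 by the test, and the day 14 libraries differed from each other. All 44 members were higher in day 14 replicate 1 than in replicate 2, an order found in 50.6% of all genes, with a median ratio of 2.02 (range 1.29 for Iigp1 to 5.71 for Ifi205) against 1 over all genes tested. The corresponding ratio of the highest to the lowest library was 1.35 at day 5 and 1.24 at day 28. Replicate 1 was within or above the day 5 range for 40 members, against 8645 of the 12858 genes tested. Replicate 2 was under every day 5 library for 42 members, against 4603 of the genes tested. It was at or under the higher day 28 library for 10 members, against 8534 of the genes tested. Against day 5, edgeR called 0 of the 44 members at day 14, where 4.78% of all genes tested were called in either direction. Its unadjusted p was under 0.05 for 4 members and for 3083 of the 12858 genes tested. DESeq2 called 1 member, Parp14, as lower, where it called 4.96% of all genes lower, and limma on log2 FPKM called none. Log2 fold changes were negative for 37 members with a median of -0.23, and the lowest adjusted p was 0.105 for Parp14. Over all genes tested, 6055 of 12858 were negative and the median was 0.03. That median was 0.03 without day 14 replicate 1 and 0.00 without replicate 2. Without replicate 1, 27 members were called lower at day 14 than at day 5, against 7.34% of all genes in that fit, 43 were negative and the median was -0.82. Without replicate 2, none was called, against 2.13% of all genes in either direction, 11 were negative and the median was 0.15.

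From day 14 to day 28 the log2 fold change was negative for all 44 members, with a median of -1.07 and a range from -2.22 for Oas3 to -0.26 for Oasl1. Over all genes tested, 6278 of 12858 were negative and the median was 0.01. None was called by edgeR, in a comparison in which 0.0622% of all genes tested were called. Its unadjusted p was under 0.05 for 36 members and for 1570 of the 12858 genes tested. DESeq2 called 24 members lower, against 1.79% of all genes, and limma none. The lowest adjusted p values were 0.0514 for Dhx58 and 0.0554 for Ly6e. Without day 14 replicate 2, 43 members were called lower at day 28, against 3.29% of all genes in that fit. Without day 14 replicate 1, 4 were called lower, against 0.12% of all genes, while 38 were negative and the median was -0.43. In both fits the median over all genes tested was 0.02. The position of day 14 between day 5 and day 28 thus rests on which day 14 library is used.

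Genes around the interferon signal were taken from a list of 53 genes, of which 34 were tested. The list holds ligands, receptors and kinases, transcription factors, sensors and adaptors that act ahead of interferon, and inhibitors. From day 5 to day 28, 9 fell and none rose, where 7.51% of all genes tested fell and 7.74% rose. The 9 were 1 receptor gene, 2 transcription factors, 5 sensors or adaptors and 1 inhibitor. Among 20 ligand genes, 18 were in the table and 14 of those had no fragment in any library. Ifnb1, encoding interferon beta, was low and scattered at 0.794, 0.512 and 1.36 FPKM at day 5, 2.43 and 0 at day 14, and 1.55 and 5.11 at day 28, with no call (1.88 ± 1.07, adjusted p = 0.263). Ifng was at 0 in all libraries but day 14 replicate 1, where it was at 0.494 FPKM, and sorted macrophages need not be the cells that make either ligand. Ifnar1 was at 52.6, 57.2 and 53.3 FPKM at day 5, 41.3 and 30.9 at day 14, and 37.2 and 40.3 at day 28. It was called lower at day 14 with a change of -0.58 ± 0.14 and at day 28 with one of -0.48 ± 0.14, each just under the threshold (adjusted p = 0.0492 for both). The day 14 call was lost without any library other than day 14 replicate 1 (adjusted p of up to 0.199), and the day 28 call without any day 5 or day 28 library (up to 0.219). Ifnar2, Ifngr1, Ifngr2, Jak1, Jak2 and Tyk2 were not called, with log2 fold changes to day 28 between -0.37 and -0.03.

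Of the 8 transcription factors listed, 2 fell by day 28 and none was called at day 14. Irf7, the factor that amplifies type I interferon and is itself induced by it, was at 610, 522 and 433 FPKM at day 5, 626 and 269 at day 14, and 105 and 91.5 at day 28. Its fall of -2.40 ± 0.32 on the log2 scale (adjusted p = 0.00267) was within the range of the members, and its day 14 libraries were split like theirs. Irf9, a part of the complex that binds the response element, fell less. Irf9 was at 36.8, 33.2 and 32.9 FPKM at day 5, 33.6 and 28 at day 14, and 24.6 and 19.9 at day 28 (-0.61 ± 0.13, adjusted p = 0.0176). Its partner Stat2 had a log2 fold change of -0.66 ± 0.22 (adjusted p = 0.0702). Irf1, Irf2, Irf3, Irf5 and Irf8 were not called. Of 11 sensors and adaptors that act ahead of interferon, 5 fell by day 28, namely the adaptor Myd88 (-1.05 ± 0.13, adjusted p = 0.00183), the kinase Ikbke (-1.15 ± 0.15, adjusted p = 0.00253) and the receptors Tlr3, Tlr7 and Tlr4 (-0.65, -0.65 and -0.62). Myd88 and Ikbke were also lower at day 14 than at day 5 (-0.56 and -0.90, adjusted p = 0.0407 and 0.0189). Without day 14 replicate 2 the adjusted p was 0.164 for Myd88 and 0.0422 for Ikbke, and without replicate 1 it was 0.00627 and 0.00204. The day 14 call of Myd88 was also lost without any day 5 or day 28 library, and that of Ikbke without day 5 replicate 1 or 2. At day 28, Irf7, Myd88 and Ikbke kept their call without each library in turn. That of Irf9 was lost without day 28 replicate 2 or day 5 replicate 1, those of Tlr3 and Tlr7 without any day 5 or day 28 library, and that of Tlr4 without any day 5 library or day 28 replicate 2. Of 7 inhibitors, 1 fell: Socs3, at 940, 833 and 553 FPKM at day 5, 882 and 301 at day 14, and 213 and 288 at day 28 (-1.62 ± 0.41, adjusted p = 0.0291). The Socs3 call was lost without either day 28 library or without day 5 replicate 1 or 2 (adjusted p of up to 0.199).

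**Figure D4:**
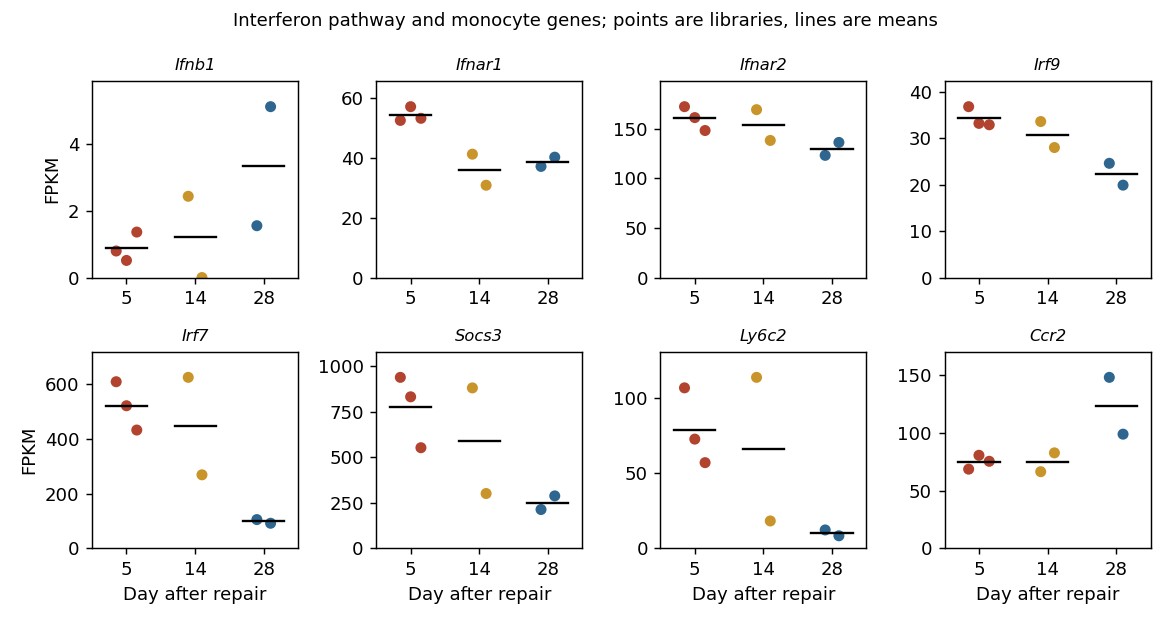
FPKM of 8 genes around the interferon-stimulated genes at days 5, 14 and 28, each panel with its own axis from 0. Points are libraries and lines the mean of the day. Irf7, Socs3 and Ly6c2 show the split between the day 14 libraries and the low day 28 level seen in the members, Ifnar1 has lower means at days 14 and 28 than at day 5, Ccr2 is higher at day 28 and Ifnb1 scatters.

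Other genes known to respond to interferon, which were listed apart from the members, were also lower at day 28, with a smaller median change. This list too was chosen with earlier results of these data known, so it is no independent test of the members' fall. Of 64 listed, 60 were tested, and from day 5 to day 28, 35 fell and 2 rose, with a median log2 fold change of -0.92. Over all genes tested, 7.51% fell and 7.74% rose. The 6 with the lowest adjusted p all fell: the helicase gene Helz2 (-2.59), Slfn4 (-2.98), Ifitm2 (-0.87), Trim30d (-2.71), Eif2ak2, the kinase PKR (-1.37), and Ifi202b (-1.44). Slfn4 was at 281, 339 and 217 FPKM at day 5, 278 and 88.7 at day 14, and 40.9 and 29 at day 28. Among these 6, only Ifi202b lost its day 28 call on leaving out a library, day 28 replicate 2. Helz2 was also lower at day 14 (-1.25 ± 0.30, adjusted p = 0.0492), a call lost without any day 5 or day 28 library. Ifi30, a lysosomal thiol reductase of antigen processing, was one of the 2 that rose, at 349, 335 and 336 FPKM at day 5, 525 and 498 at day 14, and 503 and 531 at day 28 (0.62 ± 0.11, adjusted p = 0.00663). Ifi30 was higher by day 14 too (0.60 ± 0.11, adjusted p = 0.0209), with adjusted p of 0.0133 and 0.0301 without day 14 replicates 1 and 2 and up to 0.0917 without a day 5 library, each of which ended the call. Aim2, the DNA sensor of an inflammasome and a relative of Ifi204, also rose (1.03 ± 0.19, adjusted p = 0.00904, but 0.0876 without day 28 replicate 1). Ifi30 and Aim2 were singled out after their values were seen.

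Markers of Ly6C monocytes moved in part with the members. Ly6c2 was at 107, 72.8 and 57.1 FPKM at day 5, 114 and 18.2 at day 14, and 12.2 and 8.31 at day 28, and it fell by day 28 (-2.90 ± 0.66, adjusted p = 0.0206). Plac8 (-2.69, adjusted p = 0.00638) fell as well, so that 2 of the 3 listed markers fell, while the other, the chemokine receptor Ccr2, rose (0.74 ± 0.18, adjusted p = 0.0259). The 3 markers summed to 331 to 501 FPKM at day 5, 167 to 392 at day 14 and 138 to 204 at day 28, and none was at 0. Ly6c2 was highest in day 14 replicate 1, where the summed level of the members was also highest. The members' median percentage of the day 5 mean was highest in day 5 replicate 2, at 112 against 111 in day 14 replicate 1. Plac8 was highest in day 5 replicate 1, at 326 FPKM. The call of Ly6c2 was lost without either day 28 library or day 5 replicate 1. That of Plac8 was lost without either day 28 library, and that of Ccr2 without day 28 replicate 1 or any day 5 library. The part of these cells in the result was not tested. The plasmacytoid dendritic cell markers Siglech, Ccr9 and Ly6d were at or near 0 in all libraries, with no value above 0.478 FPKM. The fourth of the 5 listed, Klk1, reached at most 0.409 FPKM, and the fifth, Tcf4, which other cells also express, was at 15.3, 17.4 and 15.4 FPKM at day 5, 14.2 and 10.8 at day 14, and 8.67 and 11 at day 28. Tcf4 fell with the members (-0.69 ± 0.15, adjusted p = 0.0181). The 7 neutrophil markers summed to 336 to 358 FPKM at day 5, 579 to 595 at day 14 and 152 to 292 at day 28. By day 28, 2 of them fell, Mmp8 and Csf3r, and the call of Csf3r was lost without day 28 replicate 1. Mmp8 was also lower at day 14 (-1.60 ± 0.26, adjusted p = 0.0184), a call lost without day 5 replicate 1 or 3. The 6 markers of T and NK cells summed to at most 1.43 FPKM, and the 4 of B cells to at most 10.8 FPKM, nearly all of it Cd79b. The 4 endothelial markers summed to 14.6 to 26.2 FPKM at day 5, 7.24 to 13.4 at day 14 and 3.66 to 6.49 at day 28. Of these, Kdr, a receptor for vascular endothelial growth factor, moved with the members, at 13, 8.5 and 11.3 FPKM at day 5, 8.64 and 2.91 at day 14, and 1.39 and 1.27 at day 28 (-3.02 ± 0.42, adjusted p = 0.0029). Pecam1 fell too (-1.80, adjusted p = 0.0145), Tek rose from near 0 (4.63, adjusted p = 0.0208, no value above 0.267 FPKM) and Cdh5 was not called. The 5 conventional dendritic cell markers summed to 8.02 to 12.8 FPKM at day 5 and 19.7 to 30.1 at day 28, where Ccr7 was higher (1.43, adjusted p = 0.04). The 5 Schwann cell markers summed to 10.7 to 11.5 FPKM at day 5 and 17.7 to 19.9 at day 28, nearly all of it Mbp, which was higher at day 28 (0.75, adjusted p = 0.0296). Of the fibroblast markers, Col1a2 was higher at day 14 than at day 5 (1.86, adjusted p = 0.035, but up to 0.115 without 1 library) and none was called at day 28. The call of Kdr held without each library in turn, whereas those of Tcf4, Pecam1, Tek, Ccr7 and Mbp were each lost without at least 1 library of day 5 or day 28. The part of these cell types in the members' change was not tested. Of the 8 macrophage markers, 2 fell by day 28: Emr1, which encodes F4/80, and Cd14 (-1.01 and -0.76, adjusted p = 0.0065 and 0.0145). The call of Emr1 was lost without day 28 replicate 1, and that of Cd14 without day 28 replicate 1 or day 5 replicate 1. Cd14 was also lower at day 14 (-0.75, adjusted p = 0.0357), a call lost without day 14 replicate 2 or any day 5 library. Itgam, Fcgr2b, Cd68, Mertk, Csf1r and Fcgr3 were not called, with log2 fold changes to day 28 between -0.45 and 0.12.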

How the data were processed

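Single-end RNASeq reads of 7 libraries of sorted nerve macrophages were trimmed with cutadapt 1.8, mapped to UCSC mm10 with TopHat2 2.0.13 and quantified with Cuffdiff 2.2.1, per the submitters' notes and the study's methods. The authors deposited estimated counts, that is, fragments assigned to each gene before scaling, of which 1.01% of values were not whole. The deposited signal after scaling, which holds these fragments times cuffdiff's library factor, was used for 1 alternative. The FPKM values deposited by the authors adjust the scaled fragments for transcript length and library size and served for levels per library. Mapping of BALB/cJ reads to the genome of another strain can lower the count of genes that differ between strains.

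Estimated counts were rounded and fitted with edgeR 4.0.16 in R 4.3.3 (TMM, filtering of low genes by day, two-sided quasi-likelihood F tests, Benjamini-Hochberg adjustment over the 12858 genes tested). All 7 libraries entered 1 fit without covariates other than day, and a gene was called at an adjusted p under 0.05. DESeq2 1.42.0 and limma 3.58.1 on log2(FPKM + 1) and log2(FPKM + 0.1), other scaling, no filter, fits on 2 days, the replicate block and leaving out each library were alternatives. Library totals were 18027190 to 35247116 fragments, and a gene counted as detected above 3 fragments, a floor that covers counting error only. The members and lists were chosen with earlier results of these data known. Some listed genes are not reported here. Values in every library are given for the 12 called members with the lowest adjusted p and for the member with the highest mean FPKM of each role group, and genes of other lists are named when called, at most 6 per list, beside the main pathway genes. Figures were drawn with matplotlib 3.10.9.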

Additional observations from a re-analysis of the deposited data

How the results depend on the processing

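The direction of the class held under every setting tried for day 28 versus day 5: the median log2 fold change of the members stayed between -1.51 and -1.26 when each library was left out in turn, and the count of members that fell ranged from 9 (without day 28 replicate 2) to 42. With an adjusted p under 0.01, 18 members were called. The share of all genes called is not given for this threshold, for no expression filter or for fits on 2 days. Those counts describe the members only. For day 28 versus day 14, where edgeR over all libraries called 0, DESeq2 called 24, the fit with no expression filter 31, and leaving out a library gave 0 to 43 calls with a median of -1.48 to -0.43. For day 14 versus day 5, also 0, DESeq2 called 1 (lower), no expression filter 4 (3 of them lower), a fit on the 2 days alone 1 (higher), and leaving out a library 0 to 27, with a median of -0.82 to 0.15. Other scaling of the libraries (RLE or cuffdiff) changed none of these counts. The cause of these shifts was not tested.

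Whether the replicate numbers pair the libraries is not given in the sources used here. Deviations of same-numbered libraries correlated at 0.402 and 0.058 for days 5 and 14 and at -0.138 for days 14 and 28. For days 5 and 28 the values were -0.0491 and 0.0287. With 2 libraries at a day the 2 deviations mirror each other, so these few values cannot decide on pairing. With a replicate block, which leaves 2 residual degrees of freedom in place of 4, 28 members fell from day 5 to day 28, and 0 were called in either of the other comparisons. With the day 28 numbers swapped, a pairing added after the data were seen, the block gave 36, 4 (day 28 versus day 14) and 0. The share of all genes called with a block is not given, so these counts also describe the members only.

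Of 368 alternative values for single named members, 328 kept direction and call, 25 became called, 12 lost their call and 3 changed sign. The 12 lost calls, each on leaving out a day 28 library, were those of Oasl2, Parp14, Zbp1, Isg15, Irgm1 and Ifi44. The sign changed only for Iigp1, to -0.04 with limma on log2(FPKM + 0.1), -0.04 with the replicate block and, over libraries left out in turn, a range of -0.91 to 0.81. With 2 libraries at days 14 and 28, the precision rests on few libraries rather than on depth, since no member had fewer than 65 fragments in a library.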
